A study of Mus musculus and Oryctolagus cuniculus and Sus scrofa with 20 samples.

Results

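A mouse small RNA library from cultured spermatogonial stem cells (SSCs) was compared with one from pre-leptotene spermatocytes; these 2 of the 20 libraries of the series were chosen by their sample titles. The series profiled small RNA of purified mouse male germ cells, of rabbit, pig and rat testis, and of SSCs without miR-741. The cultured SSC library is labelled wild type, strain C57BL/6, untreated, with no age. The labels' protocol derives SSCs from a male C57BL/6 x DBA2 F1 mouse, 15 days old, with an actin-EGFP transgene, and grows the colonies on mouse embryonic fibroblast (MEF) feeder cells. The pre-leptotene library is wild type, C57BL/6, untreated, from testes of postnatal day 9. A further wild type cultured SSC library (here the control SSC library, C57BL/6 x DBA2 F1, postnatal day 15, untreated) and the leptotene library (wild type, C57BL/6, postnatal day 9, untreated) served as a second pair that shares no library with the main pair. Nothing in the labels says how many animals a library holds. Culture, feeder cells, age and, by the protocol, strain differ together with the cell type and cannot be told apart from it. With 1 library a side no difference has a replicate check, and each value compares these libraries only.

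Spermatogonial stem cells are the self-renewing germ cells of the testis, and pre-leptotene spermatocytes are the cells that replicate their DNA for the last time before meiosis. miRNAs are cut from a hairpin by Dicer, which leaves a 5p and a 3p arm, and the seed near the 5' end of the loaded arm directs it to target mRNAs. piRNAs are longer germ cell small RNAs bound by PIWI proteins; most begin with U, and before pachytene many come from transposons and from the 3' untranslated regions (UTRs) of mRNAs. The 5' parts of tRNAs are a further class of small RNA that is abundant in germ cells.

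The cultured SSC library held 20302560 reads in 2757899 distinct sequences (tags) and the pre-leptotene library 13169831 reads in 604549 tags; the control SSC library held 1449449 reads and the leptotene library 12247017. Reads assigned to a miRNA arm made up 25.3% of the SSC library (5129559 reads) and 46.2% of the pre-leptotene library (6087617 reads). Intervals below are 95% exact intervals that cover counting error only, since PCR reads without molecular identifiers are not independent molecules.

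The arms that carry the comparison are shown first, 5' to 3', with the seed (bases 2 to 8) in capitals; sequences and positions are from RefSeq on GRCm38. The X-linked miR-506 family supplies the most abundant arms of both libraries, and the members below include those that were higher in pre-leptotene, those that were lower, and those with the largest change in 3' tails.
miR-741-3p: uGAGAGAUgccauucuauguaga
miR-871-3p: uGACUGGCaccauucuggauaau
miR-470-5p: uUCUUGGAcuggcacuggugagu
miR-743b-3p: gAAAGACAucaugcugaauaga
miR-743a-3p: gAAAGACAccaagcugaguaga
miR-880-3p: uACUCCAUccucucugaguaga
miR-881-3p: aACUGUGUcuuuucugaauaga
miR-465a-5p: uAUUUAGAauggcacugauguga
miR-465b-5p: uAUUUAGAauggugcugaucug
miR-465c-5p: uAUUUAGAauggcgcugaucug
miR-470-3p: aACCAGUAccuuucugagaaga
miR-743a-5p: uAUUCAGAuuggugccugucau

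These genes lie on the minus strand of the X chromosome. miR-743a-3p is at chrX:66776760-66776781, miR-741-3p at chrX:66796809-66796831, miR-880-3p at chrX:66800540-66800561, miR-871-3p at chrX:66810438-66810460 and miR-465a-5p at chrX:66839099-66839121.

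The arms below fell most, rose most, or share a seed with an arm that went the other way. miR-221-3p (chrX:19146307-19146329) and miR-222-3p (chrX:19146901-19146923) come from one X-linked pair of hairpins. miR-291a-3p (chr7:3218968-3218989), miR-294-3p and miR-295-3p belong to the miR-290 cluster of pluripotent cells. miR-202-5p is at chr7:139957732-139957752.
miR-221-3p: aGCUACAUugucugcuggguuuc
miR-222-3p: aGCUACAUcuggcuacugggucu
miR-291a-3p: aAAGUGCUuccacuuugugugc
miR-294-3p: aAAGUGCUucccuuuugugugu
miR-295-3p: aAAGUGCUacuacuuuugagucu
miR-449c-5p: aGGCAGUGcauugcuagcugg
miR-202-5p: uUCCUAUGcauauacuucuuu
miR-501-3p: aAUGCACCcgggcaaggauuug
miR-10a-5p: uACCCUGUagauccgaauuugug
miR-10b-5p: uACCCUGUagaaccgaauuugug
miR-99a-5p: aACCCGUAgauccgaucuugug
miR-100-5p: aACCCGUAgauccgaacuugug
miR-15b-5p: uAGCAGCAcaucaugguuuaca
miR-16-5p: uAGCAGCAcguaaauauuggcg
miR-195a-5p: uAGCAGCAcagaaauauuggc
miR-497a-5p: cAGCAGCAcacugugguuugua

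Cultured SSCs held a broader set of miRNAs than pre-leptotene spermatocytes, in which a few arms of the miR-506 family took most of the reads. Of 333 arms with at least 100 reads in 1 library, 180 (54.1%) were at least 4-fold lower and 12 (3.6%) at least 4-fold higher in pre-leptotene, as a share of miRNA reads. The median arm differed by -2.30 on the log2 scale, pre-leptotene minus SSC, and 52 arms lay above 0. This balance depends on the scale: as a share of all reads the split was 24 higher and 137 lower with a median of -1.43, with TMM factors 52 and 82 with a median of -0.28, and with DESeq2 factors 59 and 78 with a median of -0.11. Differences in miRNA level are given on the miRNA-read scale unless stated, against that median of -2.30. Of the 192 arms called, 189 had the same sign between the control SSC and leptotene libraries, and 150 passed 4-fold there too. The 3 exceptions were miR-31-3p, miR-3472 and miR-18a-3p, each with 3 or fewer reads in the control SSC library. Of the 192 called arms 180 were lower, and the median of all tested arms in the second pair was -1.95. A shared sign is thus partly set by this general shift. No minimum of reads was set in the second pair, and a count of 0 was set to 3 there. Its control SSC library held 468367 miRNA reads and its leptotene library 4811021. An arm with no reads in either was therefore scored as lower past 4-fold, so arms with few reads there are a weak check.

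**Figure D1:**
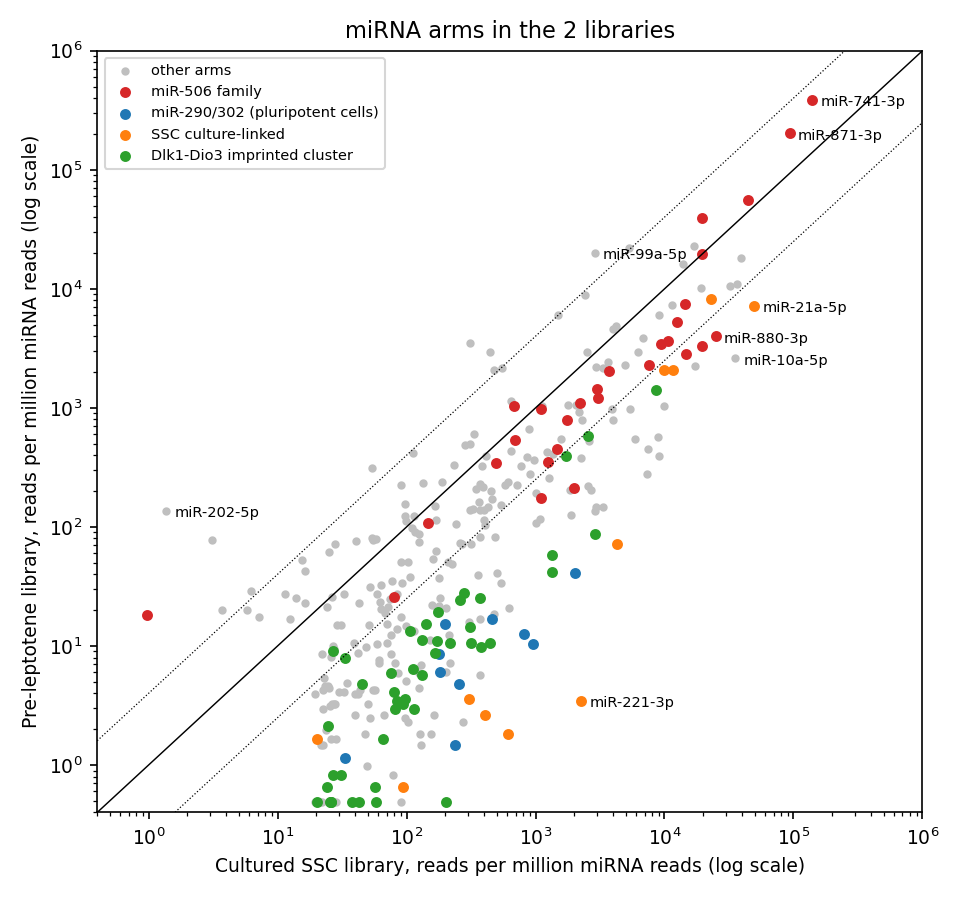
Level of each of the 333 miRNA arms in the cultured SSC library (x axis) and the pre-leptotene library (y axis), in RPM relative to miRNA reads, on log scales; each point is 1 arm, colours mark the miR-506 (red), pluripotent (blue), culture-linked (orange) and Dlk1-Dio3 (green) lists, levels under 3 reads are drawn at 3 reads, the solid line marks equal levels and the dotted lines 4-fold. On this scale the cloud lies below the line of equal levels, with miR-741-3p and miR-871-3p above it at the top right and miR-221-3p far below it.

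The miR-506 family, a cluster of X-linked miRNAs found mainly in male germ cells, made up 45.2% of miRNA reads in SSCs and 74.4% in pre-leptotene, and 46.8% and 74.8% in the second pair. The gain lay in few members. miR-741-3p had 712660 reads (13.9% of miRNA reads) in SSCs and 2337545 (38.4%) in pre-leptotene. miR-871-3p went from 478301 reads (9.32%) to 1229510 (20.2%), and miR-743b-3p from 99809 (1.95%) to 240251 (3.95%). miR-470-5p was close in share, 4.42% and 5.59%, and miR-465a-5p closer still, 1.94% and 1.96%. Of the 29 family arms tested, 22 had a lower share in pre-leptotene and 7 a higher one. Only 1 was 4-fold higher, miR-547-3p, with 5 and 111 reads (18.7-fold, log2 4.23, 95% interval 2.96 to 5.88). The 5 family arms at least 4-fold lower were miR-463-3p (10127 and 1289 reads, log2 -3.22), miR-741-5p (5646 and 1069, -2.65), miR-880-3p (127558 and 24223, -2.64), miR-881-3p (100590 and 20305, -2.56) and miR-883a-3p (75279 and 17148, -2.38). The family median was -1.05, above the median of all arms, and neighbours in the cluster differed by more than 4 log2 units from one another: miR-741-3p was at 1.47 and miR-463-3p, from the next hairpin along the chromosome, at -3.22.

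Outside the family the most abundant arms of the SSC library were lower in pre-leptotene. miR-21a-5p, an arm that many cultured and dividing cells hold at high levels, had 4.98% of miRNA reads in SSCs and 0.719% in pre-leptotene. miR-10a-5p, from a Hox cluster, had 3.52% and 0.261%. miR-7a-5p had 3.89% and 1.80%, miR-30e-5p 3.63% and 1.10%, miR-26a-5p 3.21% and 1.06%, and miR-183-5p 2.27% and 0.824%. Against these stood miR-10b-5p, 0.528% in SSCs and 2.19% in pre-leptotene, miR-99a-5p, 0.287% and 2.0%, miR-99b-5p, 1.69% and 2.31%, and miR-30c-5p, 1.39% and 1.61%. These 4 arms, with miR-7a-5p, completed the 10 most abundant of the pre-leptotene library beside 5 arms of the miR-506 family.

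The largest falls took arms that are plentiful in cultured SSCs to a handful of reads. miR-221-3p, whose locus is known to restrain Kit in undifferentiated spermatogonia, had 11552 reads in SSCs and 21 in pre-leptotene, a 653-fold difference (log2 -9.35, interval -10.04 to -8.74). Its neighbour miR-222-3p, with the same seed, had 3153 and 11 reads (log2 -8.41). In the second pair these arms had 1186 against 38 and 488 against 3 reads. miR-329-5p had 1045 reads in SSCs and 0 in pre-leptotene, at least 413-fold lower with 3 reads per library as the limit. miR-449c-5p had 464 and 2 reads, a ratio of 275 (log2 -8.11, interval -11.15 to -6.24). miR-291a-3p had 1215 and 9 reads (log2 -7.32), miR-182-3p 2074 and 16 (-7.27) and miR-96-3p 484 and 4 (-7.17). miR-33-5p had 109 and 1 reads, a ratio of 129 (log2 -7.02, interval -12.33 to -4.51). miR-205-5p, an epithelial arm, had 1410 and 14 reads (-6.90) and miR-431-5p 296 and 3 (ratio 117, log2 -6.87, interval -9.16 to -5.31). Leptotene against the control SSC library gave log2 differences from -4.10 to -10.71 for these arms, apart from miR-449c-5p, which had 2 and 0 reads there.

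Among the rises, miR-202-5p stood apart. This gonad-enriched arm had 7 reads in SSCs and 829 in pre-leptotene (99.8-fold, log2 6.64, interval 5.59 to 7.96), and 1 and 728 reads in the second pair. miR-3475-3p had 16 and 469 reads (log2 4.63). Most of the other rises came at higher counts, so that counting error was small: miR-501-3p had 1599 and 21248 reads (3.49), miR-99a-5p 14721 and 121750 (2.80) and miR-15b-5p 2296 and 17992 (2.72). miR-672-5p had 278 and 1902 reads (2.53) and miR-342-3p 2430 and 12769 (2.15). At low counts lay miR-188-3p, with 19 and 122 reads (2.44, interval 1.73 to 3.22), and miR-3074-5p, with 32 and 175 (2.20, interval 1.65 to 2.80). miR-10b-5p (2.05) and miR-362-5p (7631 and 36893 reads, 2.03) were just inside the 4-fold limit, and miR-192-5p (2821 and 13167 reads, 1.98) just outside it. Every one of these arms was higher in leptotene than in the control SSC library.

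The X chromosome supplied 6 of the 12 arms called higher. Of 59 tested arms on the X chromosome 6 were at least 4-fold higher in pre-leptotene (10.2%) and 20 lower, against 6 of 274 higher (2.19%) and 160 lower among autosomal arms. The 6 were miR-547-3p, miR-3475-3p, miR-672-5p, miR-501-3p, miR-188-3p and miR-362-5p. The last 3 lie within chrX:7241270-7248012 on the minus strand, where miR-532-3p (284 and 475 reads, log2 0.49) was also higher and miR-362-3p (640 and 458 reads, -0.73) was lower. The X chromosome also held miR-221-3p and miR-222-3p, which fell, and the median of its 30 tested arms outside the miR-506 family was -1.996, against -2.50 on the autosomes. X linkage was looked at after these values were seen.

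Arms with the same seed, which direct the same seed matches, did not move as one. miR-10a-5p was lower (180487 and 15894 reads, log2 -3.75) while miR-10b-5p was higher (27105 and 133296 reads, 2.05). In the seed group of miR-99 and miR-100, miR-99a-5p was 6.97-fold higher, miR-99b-5p differed by 0.45 and miR-100-5p (17226 and 13272 reads) by -0.62. In that of miR-15 and miR-16, miR-15b-5p was 6.60-fold higher and miR-16-5p near level (12956 and 17820 reads, 0.21), whereas miR-15a-5p was at -1.03, miR-322-5p at -2.85, miR-195a-5p (9750 and 769 reads) at -3.91 and miR-497a-5p (1915 and 35 reads) at -6.02. Summed over all arms of this list (miR-15, miR-16, miR-195 and miR-497) the share was 0.590% in SSCs and 0.630% in pre-leptotene. Within the miR-506 family, miR-743b-3p was 2.03-fold higher and miR-743a-3p, with the same seed, 3.30-fold lower (38977 and 14004 reads).

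Arms known from pluripotent cells were all low in pre-leptotene. The miR-290 cluster promotes the rapid cell cycle of embryonic stem cells. All 10 tested arms of the miR-290 and miR-302 list passed 4-fold toward SSCs, against 54.1% of all arms. Their median log2 difference was -5.26, and their summed share was 0.536% in SSCs and 0.0121% in pre-leptotene (0.351% and 0.0240% in the second pair). The most abundant were miR-292a-5p with 10384 and 250 reads, miR-293-3p with 4905 and 63, and miR-295-3p with 4194 and 77. Of the 11 arms linked to SSC culture in earlier work (miR-21a, miR-146a, the miR-183, 96 and 182 cluster, miR-221 and miR-222), 10 were 4-fold lower, again against 54.1% of all arms. Their median was -5.91 and their shares 10.2% and 1.96%. miR-183-5p, with 116670 and 50174 reads (-1.46), was the one that did not reach 4-fold; miR-182-5p had 59867 and 12559 reads (-2.50). The list comes from work on cultured SSCs. With TMM factors the log2 difference of its summed share was -0.35 instead of -2.38, and that of the pluripotent list -3.45 instead of -5.47.

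The miR-34 and miR-449 families, which share a seed and act in meiotic male germ cells and ciliated cells, were at least 4-fold lower in pre-leptotene in 6 of 6 tested arms, with a median of -5.92. miR-34a-5p had 2560 reads in SSCs and 248 in pre-leptotene, miR-34b-3p 663 and 9, and miR-449a-5p 647 and 11. Of the 19 tested arms of the miR-17 and miR-106 clusters, which drive proliferation, 12 were 4-fold lower, a share near the 54.1% of all arms, and none 4-fold higher; their share was 4.08% and 1.40%. miR-92a-3p (58357 and 44561 reads, -0.64) and miR-25-3p (34927 and 23533, -0.82), which share one seed, differed little, while miR-20a-5p, with another, fell from 45451 to 3461 reads (-3.96). The imprinted Dlk1-Dio3 cluster on chromosome 12 was lower throughout: 45 of 46 tested arms at 4-fold, a median of -4.57 and shares of 2.37% and 0.288%. Its main arms were miR-127-3p (43845 and 8679 reads, -2.58), miR-434-5p (14864 and 531, -5.05) and miR-409-5p (13042 and 3551, -2.12). Of 8 tested arms of the X-linked miR-322 and miR-503 cluster 6 were lower, with a median of -2.27, near that of all arms; miR-351-5p (1899 and 1398 reads, -0.69), miR-322-3p (-2.16) and miR-450a-5p (1330 and 443 reads, -1.83) had most reads.

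let-7, which accompanies differentiation in many tissues, was no higher in pre-leptotene by share: 2.05% in SSCs and 0.792%, with 3 of 11 arms 4-fold lower and a median of -1.19. With TMM factors this sum turned to 0.66. The fall was concentrated in let-7i-5p (37309 and 1691 reads, -4.71), while let-7f-5p (25128 and 14021, -1.09) and let-7g-5p (18582 and 14885, -0.57) were above the median of all arms.

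Markers of other cells moved in both directions, and their part in the differences above was not tested. The list for feeder fibroblasts and stroma took 7.03% of miRNA reads in SSCs and 4.90% in pre-leptotene (9.80% and 4.91% in the second pair), with 8 of 11 arms lower and 2 higher (54.1% and 3.6% of all arms); the direction of the sum turned as a share of all reads, to 0.35, and with TMM factors, to 1.504. Its fibroblast arm miR-199a-5p had 51253 and 6296 reads (-3.27), while miR-10b-5p and miR-99a-5p were the 2 higher arms. On the pre-leptotene side, the single tested arm of the Sertoli and gonadal somatic list was miR-202-5p, and the list went from 0.000292% to 0.0143%. Epithelial arms summed to 0.343% and 0.0293%, mostly miR-203-3p (14785 and 822 reads), and miR-200b-3p alone of them had a higher share in pre-leptotene (299 and 479 reads, 0.43). Blood cell arms summed to 0.0184% and 0.000854%, with miR-142a-5p at 402 and 5 reads. Endothelial and muscle arms summed to 0.0345% and 0.0141%, with miR-126a-3p at 1673 and 857 reads. The liver or neural list held miR-9 arms only and summed to 0.0120% and 0.0162%, with miR-9-5p at 499 and 958 reads. The miRNA reference had no entry for miR-143, miR-145a, miR-145b, miR-486a, miR-133a, miR-122 or miR-124. These members of the feeder, blood, muscle and liver or neural lists were therefore not counted. In bulk libraries fewer cells of a type and less RNA per cell cannot be told apart.

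The 3' ends of miRNAs differed between the libraries mainly by added U. Terminal uridylation marks some miRNAs and precursors for decay or further processing. A tail here is 1 to 3 bases at the 3' end that the hairpin does not encode. Over 99 arms with at least 1000 reads in each library, the median share of reads with a U tail was 2.68% in SSCs and 4.56% in pre-leptotene, and 80 of the 99 arms had the larger share in pre-leptotene, among them 23 of 26 miR-506 family arms and 57 of 73 others. Tails of A did not follow, since 37 of 99 arms had more in pre-leptotene. The share with any tail was 6.45% and 10.0% in the median and higher in pre-leptotene in 67 arms. In the second pair 82 of 96 arms had more U tails in leptotene than in the control SSC library, and 77 went the same way in both pairs. When each distinct tag was counted once, the median difference in U tails was 3.70 points, but that in all tails turned from 2.24 to -2.88 points.

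**Figure D2:**
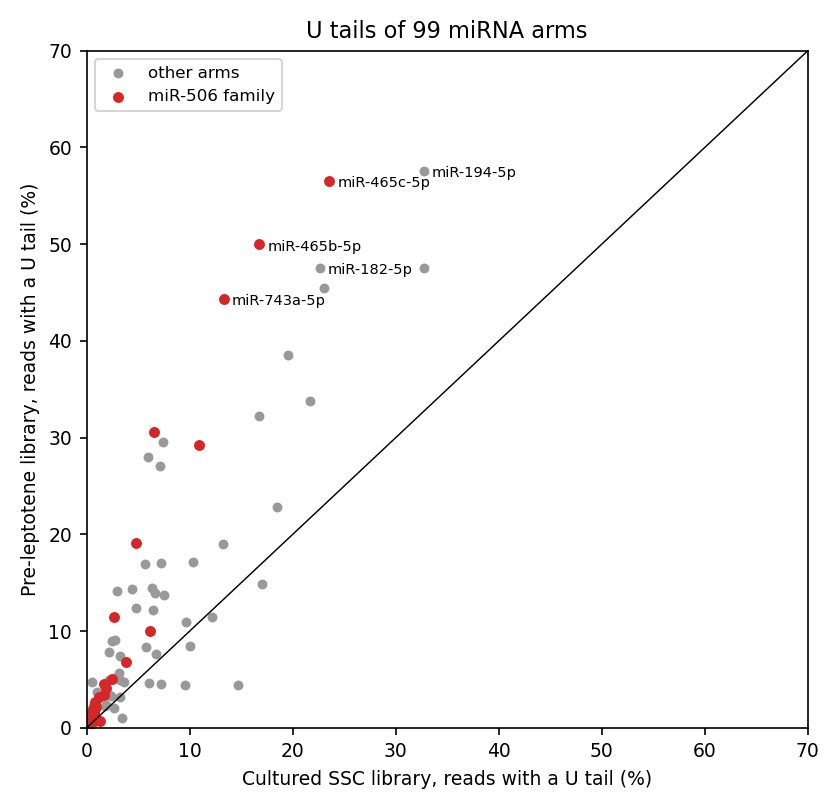
Share of reads with a U tail for each of 99 miRNA arms, in percent, in the cultured SSC library (x axis) and the pre-leptotene library (y axis); each point is 1 arm, red for the miR-506 family, and the line marks equal shares. Most points, 80 of 99, lie above the line, and the labelled arms, miR-465b-5p, miR-465c-5p, miR-194-5p, miR-182-5p and miR-743a-5p, are among those with the most U tails in pre-leptotene.

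The largest differences in tails were in miR-465b-5p, miR-465c-5p and miR-470-3p, followed by miR-743a-5p and miR-743b-5p. miR-465b-5p carried a tail in 20.1% of 64648 reads in SSCs and in 52.1% of 32073 in pre-leptotene (interval 51.5% to 52.6%), nearly all of it U (16.7% and 50.0%). miR-465c-5p went from 28.5% to 60.3%, with U in 23.6% and 56.6%. miR-465a-5p, which has the same seed but another 3' end, had tails in 3.03% and 5.47%. miR-743a-5p went from 19.5% to 48.6% and miR-743b-5p from 8.85% to 34.7%. miR-470-3p was the exception in base: tails were at 23.9% and 55.2%, of which A made 9.83% and 37.7% of reads and U 6.16% and 10.0%. Outside the family, miR-152-3p went from 29.2% to 53.7%, miR-23a-3p from 24.7% to 48.7% and miR-182-5p from 25.8% to 48.9%. For each of these 8 arms the leptotene library had more tails than the control SSC library, for example 26.5% and 52.2% for miR-465b-5p. The dominant arms differed little, miR-741-3p with 2.29% and 3.41% and miR-871-3p with 6.84% and 7.04%. The miR-465 genes are near-identical copies, and a copy missing from the hairpin table would make an encoded base look like a tail, which was not tested.

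Trimming and extension along the hairpin moved in either direction: 51 of 99 arms had a longer mean 3' end in pre-leptotene, and the median change was 0.01 nt. The end is given relative to the reference mature sequence, over reads without a tail. miR-194-5p ended 0.19 nt beyond it in SSCs and 1.53 nt short of it in pre-leptotene, although the control SSC library, at -1.28 nt, lay near the leptotene one, at -1.57 nt. miR-871-5p went from -0.71 to 0.20 nt and miR-21a-5p from 0.68 to 1.27 nt, with 60.6% and 72.5% of its reads longer than the reference form. Shorter in pre-leptotene were miR-298-5p (-0.68 and -1.57 nt), miR-186-5p (-0.25 and -1.10), miR-181d-5p (0.32 and -0.29), miR-106b-3p (-0.37 and -0.94) and miR-125b-5p (-0.58 and -1.10).

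A 5' shift changes the seed, and here the SSC library held more shifted reads of the 2 leading arms. Reads of miR-741-3p that start 2 nt downstream made 16.96% of its 860310 reads within 3 nt of the reference start in SSCs and 10.8% of 2605279 in pre-leptotene (20.6% and 11.4% in the second pair). For miR-871-3p the same form had 3.87% and 1.01%. miR-298-5p, shifted in 18.6% and 3.65%, had the largest difference of the 99 arms, but in the second pair it was at 7.33% and 5.95%.

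The balance of 5p and 3p arms was stable for most hairpins. Of 160 hairpins with at least 100 reads in each library, the 5p share moved by a median of 1.24 points, and 30 moved by 10 points or more, 18 toward 5p and 12 toward 3p in pre-leptotene. Of these 30, 28 moved the same way in the second pair, where the minimum of 100 reads was not applied. Mir130a and Mir200a, each listed at 0% 5p in both libraries of that pair, did not. The direction there can thus rest on few reads. The major arm changed in 9 hairpins. Mir15a had 86.9% 5p reads in SSCs (530 5p and 80 3p reads, interval 83.9% to 89.5%) and 49.0% in pre-leptotene (interval 45.1% to 53.0%). Mir339 went from 91.6% to 61.7%. Mir350 (12.7% to 50.5%), Mir335 (31.4% to 65.5%), Mir293 (32.6% to 61.8%) and Mir301 (55.6% to 82.8%) moved toward 5p, and Mir671, with only 90 and 84 reads on its arms in SSCs, from 51.7% to 22.3%. In the miR-506 family the swing was widest in Mir463, from 47.2% to 79.0% 5p; its 3p arm had 10127 and 1289 reads and its 5p arm 9038 and 4854. Mir471 moved the other way, from 93.9% to 77.9%. In Mir741 the minor 5p arm went from 0.786% to 0.0457% of arm reads. The 3p arms of miR-465a, b and c cannot be told apart, so their hairpins are not described.

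Small RNAs of piRNA length were more abundant in the SSC library. Reads matching miRNA, tRNA, rRNA, mitochondrial tRNA or rRNA, snoRNA, snRNA or other small RNA were taken out first, as were the tRNA-like groups described below. For nuclear tRNA and 28S rRNA this covers only the tag groups named by hand. The reads left at 25 to 32 nt made up 38.1% of the SSC library (7742880 reads) and 12.4% of the pre-leptotene library (1631587 reads), a 3.08-fold difference. The values were 20.9% in the control SSC and 18.01% in the leptotene library, a smaller difference than in the main pair. The share that begins with U was 78.6% in SSCs and 53.7% in pre-leptotene (71.8% and 61.2% in the second pair), and A at base 10 was at 32.2% and 28.4%. Reads of this size antisense to an annotated transcript made up 1.09% and 0.160% of the libraries and began with U in 82.2% and 67.8%. Reads with no match in the annotated transcripts made up 14.6% and 7.001%, with 71.3% and 44.6% beginning with U. They include transposon and intergenic reads, since no genome was used, and can include tRNA and rRNA fragments outside the named groups.

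**Figure D3:**
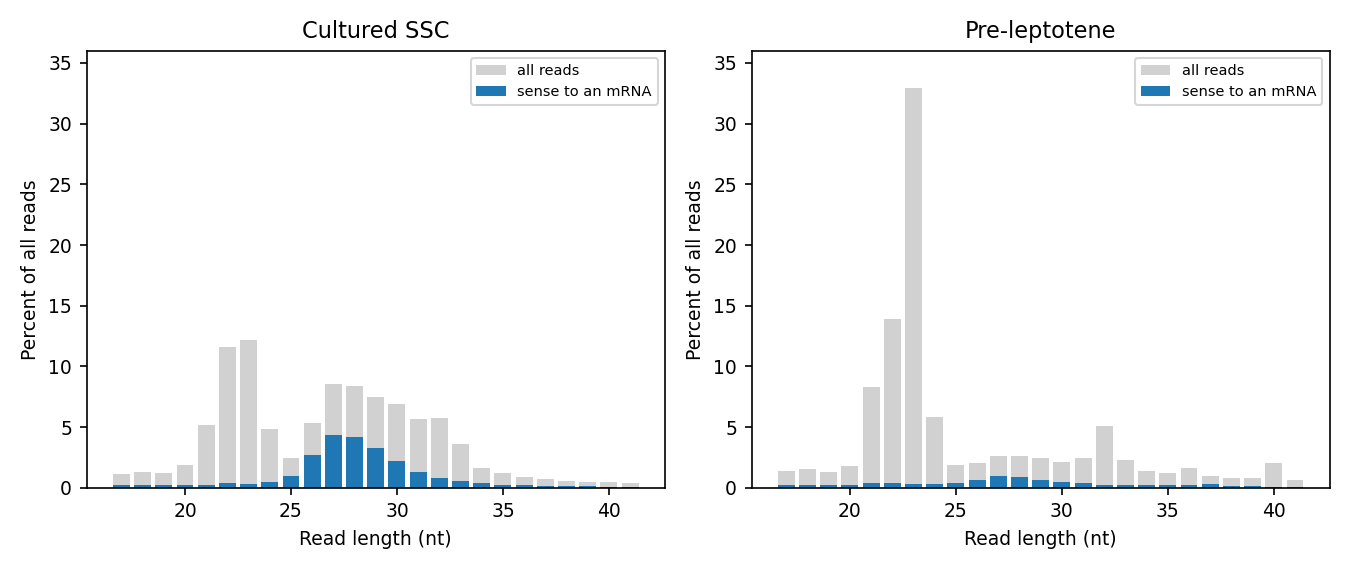
Percent of all reads at each read length from 17 to 41 nt in the cultured SSC library (left) and the pre-leptotene library (right); grey bars are all reads and blue bars, drawn within them, are reads sense to an mRNA. The SSC library has a second broad peak at 26 to 31 nt with mRNA reads in it, while in pre-leptotene 33.0% of reads have 23 nt.

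mRNA-derived reads were the larger group of this size in SSCs, while in pre-leptotene reads with no match outnumbered them. Sense reads of 25 to 32 nt within mRNAs numbered 4024577 (19.8% of all reads) in SSCs and 630987 (4.79%) in pre-leptotene, with U at base 1 in 84.1% and 65.4%. In SSCs 66.1% of them lay in 3' UTRs and 21.4% in coding sequence; in pre-leptotene the shares were 44.7% and 39.5%. The control SSC library had 61.6% and 24.7%, and leptotene 55.8% and 30.1%. U at base 1 differed less in 3' UTRs (85.6% and 73.4%) than in coding sequence (81.2% and 56.2%).

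The tags below were picked from the 5 most abundant of each library that lie in 1 gene, to show a 3' UTR and a histone source. From the SSC library they are from Dgke (3' UTR, 2132 reads in SSCs and 72 in pre-leptotene), Hist1h1d (coding, 1154 and 29) and Wasf2 (3' UTR, 1145 and 9). From the pre-leptotene library they are from Fth1 (5' UTR, 1364 reads in pre-leptotene and 255 in SSCs), Hist1h2bb (coding, 800 in pre-leptotene) and Hist1h2ba (coding, 535 and 54). The tags not printed came from Pfdn6 (1539 reads in SSCs and 455 in pre-leptotene), Slc25a51 (1177 and 162), Hist1h2bb again (622 in pre-leptotene) and Rps15 (539 in pre-leptotene and 859 in SSCs). Only the Rps15 tag had more reads in the other library, and these counts are not scaled to the larger depth of the SSC library.
Dgke: tagaatatccagaaagtgtgtaagcatt
Hist1h1d: tgcacctgtggagaagacacctgtgaag
Wasf2: taacctgaagattccatgtaactcttatg
Fth1: ttcaacagtgcttgaacggaacccggt
Hist1h2bb: ttttgaacagaatgccagagccttc
Hist1h2ba: tccaaggccatgagcatcatgaactcct

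Reads were spread over many genes, and of the genes with most reads in SSCs all named here but Fth1 lay mainly in the 3' UTR. D10Wsu102e (chr10:83360221-83488505, plus strand) gave 105515 reads in 21194 tags in SSCs and 5469 reads in 1020 tags in pre-leptotene, 99.7% and 99.9% of them in its 3' UTR. Abl2, a tyrosine kinase, gave 29249 and 1729 reads, Gabpb2 27275 and 1394, and Cbx5, which encodes the heterochromatin protein HP1 alpha, 26998 and 1474. The next were Tmem245 (22032 and 3346), Fth1, ferritin heavy chain (19282 and 6556), Eif4ebp2 (16538 and 385), Rab11fip4 (14556 and 1343) and Hinfp, a regulator of histone H4 transcription (14289 and 383). Fth1 differed from the rest in lying outside the 3' UTR, with 11.03% and 3.57% of its reads there. In the second pair Eif4ebp2 (703 reads in the control SSC library and 1049 in leptotene) was again lower relative to all reads, as were the others named here except Tmem245 (781 and 8932) and Rab11fip4 (454 and 4000), which were higher.

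Of 4513 genes with at least 100 such reads in 1 library, 2507 (55.6%) were at least 4-fold lower in pre-leptotene and 21 (0.465%) at least 4-fold higher, as a share of all reads, with a median log2 of -2.22. Within the mRNA sense reads alone, where the median was -0.17, 617 (13.7%) were lower and 308 (6.82%) higher. Genes among the 21 are named because of this count, after their values were seen. They include genes that act as germ cells enter meiosis. Stra8, the retinoic acid target needed for meiotic entry (chr6:34920163-34939344), had 22 reads in SSCs and 362 in pre-leptotene (25.4-fold, log2 4.67, interval 4.04 to 5.36), and 8 and 271 in the second pair. Prdm9, the methyltransferase that places recombination hotspots, had 12 and 177 reads, and 0 and 147 in the second pair. Meioc, which keeps cells in meiotic prophase, had 53 and 225, and Kit, the receptor of differentiating spermatogonia, 13 and 105. Ccne2 (cyclin E2; 29 and 101 reads), Esco2 (a cohesin acetyltransferase; 40 and 157) and Orc3 (an origin recognition subunit; 33 and 105) act in S phase.

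Histone genes made up 7 of the 21. Hist1h2ba and Hist1h2aa, the testis histones TH2B and TH2A, which are divergent neighbours on chromosome 13, had 131 and 1356 reads (15.96-fold) and 109 and 1310 reads (18.5-fold). Hist1h2af had 18 and 212, H2afx 54 and 252, Hist1h2bm 82 and 288, Hist1h4c 100 and 303, and H3f3b 85 and 232. Hist1h2bb (968 and 2497 reads, 3.98-fold) was just outside 4-fold. Of 32 histone genes tested, 7 were higher and 12 lower, among them Hist1h1d (2626 and 62 reads) and Hist1h1b (311 and 0). Histone genes have near-identical copies, so reads may be split among them. Tmem25, Copb1, Bclaf3, Dmxl1, 1700013H16Rik and Megf9 were also among the 21.

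U at base 1 separated these genes. Reads starting with U made 66.9% of the Stra8 reads, 84.7% of those of Prdm9 and 75.7% of those of Hist1h2ba in pre-leptotene, but 27.2% for H3f3b, 27.8% for H2afx, 20.4% for Copb1 and 0% for Tmem25, whose pre-leptotene reads are 2 tags. With reads starting with U alone, 7 genes were 4-fold higher: Hist1h2aa, Hist1h2af, Hist1h2ba, Hist1h2bb, Meioc, Prdm9 and Stra8. The most numerous mRNA assignment in pre-leptotene was Tmem38b, with 10615 reads in 11 tags and 1.33% starting with U. It is counted in the mRNA totals above but not described with the other genes. Its tags were taken to come from a copy of 5S rRNA in its transcript, which was not tested.

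**Figure D4:**
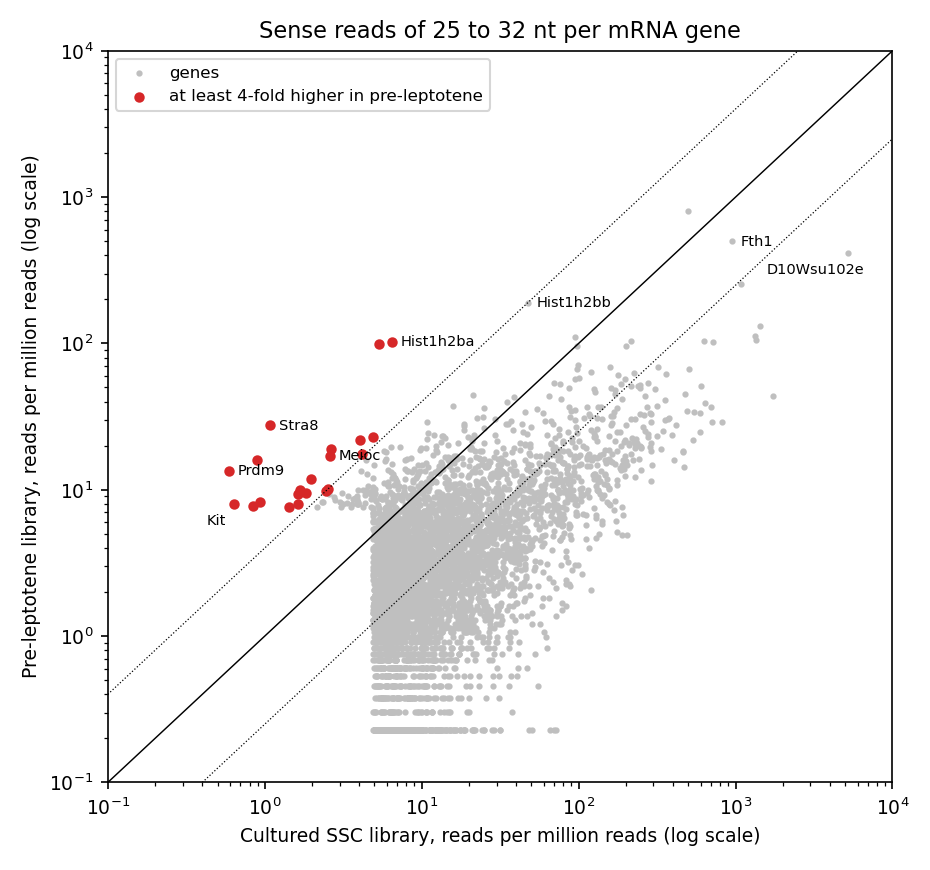
Sense reads of 25 to 32 nt for each of 4513 mRNA genes in the cultured SSC library (x axis) and the pre-leptotene library (y axis), in RPM relative to all reads, on log scales; each point is 1 gene, levels under 3 reads are drawn at 3 reads, and the lines mark equal levels and 4-fold. Most genes lie below the line of equal levels, and the 21 red genes, with Stra8, Prdm9, Kit, Meioc and Hist1h2ba, lie above the upper dotted line.

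Few piRNA-sized tags were the same in both libraries, and the share was higher among abundant tags. Of 1271880 SSC tags with at least 2 reads 4.19% occurred in pre-leptotene, and these held 26.5% of the reads; of 197995 pre-leptotene tags 27.8% occurred in SSCs, with 55.3% of the reads. Among tags with at least 10 reads, the shares were 26.5% and 67.8%. Depth sets these shares in part: with both libraries thinned to the same number of reads they were 11.6% and 19.5%. The 2 SSC libraries against each other gave 3.25% of the cultured SSC tags and 46.6% of the control SSC tags. In pre-leptotene, tags shared with SSCs began with U in 75.1% of cases and the others in 50.3%, while in SSCs the values were 76.1% and 77.7%. The libraries also differed in rare tags: 31.3% of the mRNA tags in SSCs but 11.5% in pre-leptotene had a single read (35.1% and 16.6% in the second pair), and the part of this in the overlap was not tested.

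Pairs of tags whose first 10 nt are complementary, as left by PIWI proteins that slice each other's targets, were counted in both libraries. They exceeded the geometric mean of pairs at 9 and 11 nt in each. In pre-leptotene there were fewer at 10 nt (159982) than at 9 nt (235930). A shorter match arises more often by chance, so these counts are not on a like footing. The ratio of pairs at 10 nt to the geometric mean of those at 9 and 11 nt was 2.31 in SSCs and 1.76 in pre-leptotene over distinct tags, and 2.17 and 2.29 in the second pair, so the order of the cell types turned. Weighted by reads it was 6.12 and 3.52. Among sense and antisense tags placed on the same transcript, pairs at 10 nt were 2.41 times the mean of the other overlaps from 1 to 24 nt in SSCs (242813 pairs at 10 nt) and 3.10 times in pre-leptotene (5823 pairs). In the second pair this count gave 5.27 in the control SSC library and 3.17 in leptotene, the other order.

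Fragments of the named tRNA groups were more abundant in the SSC library as a share of all reads. The reads counted were mostly 5' parts that end in or near the anticodon loop. This follows from the method, since the groups were built from tags of 28 to 36 nt and named by their 5' ends. Fragments from the 3' part of a tRNA could not be counted. The commonest tag of each group is shown with T for U, since the files hold DNA letters; names come from the 5' ends of mouse tRNAs, and the 28S tag is shown as an rRNA fragment with a higher share in pre-leptotene.
tRNA-Gly-GCC: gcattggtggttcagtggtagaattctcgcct
tRNA-Gly-GCC: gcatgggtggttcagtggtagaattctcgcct
tRNA-Lys-CTT: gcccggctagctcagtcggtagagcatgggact
tRNA-Lys-TTT: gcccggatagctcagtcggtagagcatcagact
tRNA-Glu-TTC: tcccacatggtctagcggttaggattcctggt
tRNA-Asp-GTC: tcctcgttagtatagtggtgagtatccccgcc
28S rRNA 5' end: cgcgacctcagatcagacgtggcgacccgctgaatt

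All named tRNA groups together made up 12.01% of reads in SSCs and 6.02% in pre-leptotene (10.8% and 7.17% in the second pair). tRNA-Gly-GCC led, with 1477880 reads (7.28%) and 528188 (4.01%). tRNA-Lys-CTT had 1.28% and 0.442%, tRNA-Val 0.848% and 0.775%, tRNA-Lys-TTT 0.575% and 0.396%, and tRNA-Glu-CTC 0.538% and 0.156%. tRNA-Lys-TTT turned in the second pair, with 0.330% in the control SSC library and 0.374% in leptotene. The tRNA-Val values rest on a split, since a tRNA-like group described below shares its start and was told apart by the bases that follow. Counted by the start alone, tRNA-Val had 0.795% in SSCs and 1.47% in pre-leptotene, the other direction (1.71% and 1.09% in the second pair). tRNA-Glu-TTC fell furthest, from 188190 reads (0.927%) to 7859 (0.0597%), 15.5-fold (log2 -3.96, interval -3.99 to -3.92), with 0.447% and 0.0750% in the second pair. tRNA-Asp-GTC fell 13.5-fold, from 0.164% to 0.0121%. The 2 anticodons of glutamate thus differed, at 15.5-fold and 3.44-fold. Per reads of 25 to 40 nt, the sum of all groups differed by -0.14 on the log2 scale and tRNA-Gly-GCC by 0.04, while tRNA-Glu-TTC was at -3.17. The direction of tRNA-Gly-GCC thus turned with the reads it was set against.

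Cleavage position varied between the libraries for single tRNAs. tRNA-Gly-GCC peaked at 32 nt in both, with 34.3% of its reads there in SSCs and 61.8% in pre-leptotene. tRNA-Lys-TTT fragments peaked at 33 nt in SSCs and at 24 nt in pre-leptotene, where 46.7% of its reads were under 25 nt against 10.9% in SSCs. tRNA-Glu-TTC peaked at 32 and 29 nt. A form of tRNA-Gly-GCC that lacks 1 base at position 6 or 7, counted from the 5' end, made up 17.3% and 19.9% of the whole and short forms, and the like form of tRNA-Glu-CTC 29.4% and 28.2%, so these forms differed little. Mitochondrial tRNA fragments were 14.1-fold lower in pre-leptotene (0.334% and 0.0237%; 0.242% and 0.0437% in the second pair) and mitochondrial rRNA 7.66-fold (0.276% and 0.0360%).

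A pair of tRNA-like sequence groups went the opposite way and could not be placed on a mouse tRNA. One, which resembles tRNA-Gly, had 60163 reads (0.296%) in SSCs and 261404 (1.98%) in pre-leptotene. The other, which resembles tRNA-Val, had 707 reads (0.00348%) and 133811 (1.02%). It shares its start with the tRNA-Val group and was told apart by the bases that follow. In the second pair the first had 0.385% and 1.80% and the other 0.628% in leptotene. Their source was not settled, and they are in none of the totals above.

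The rRNA fragments that could be counted had a higher share in pre-leptotene, most of it from the 28S 5' end. The rest of 28S, and any rRNA without a reference, was not counted. Reads of the 28S 5' end numbered 112254 (0.553%) in SSCs and 257685 (1.96%) in pre-leptotene, 3.54-fold more, with nearly the same values in the second pair (0.546% and 1.89%). Their commonest length changed from 20 nt (21.6% of reads) to 36 nt (35.6%). 18S reads made up 0.558% and 0.463%, and 5S reads 0.268% and 0.474%. All counted rRNA together had 1.39% and 2.90%. The control SSC library had 5.29%, with 5S at 4.07% of reads, so that sum reversed in the second pair (leptotene 3.15%).

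**Figure D5:**
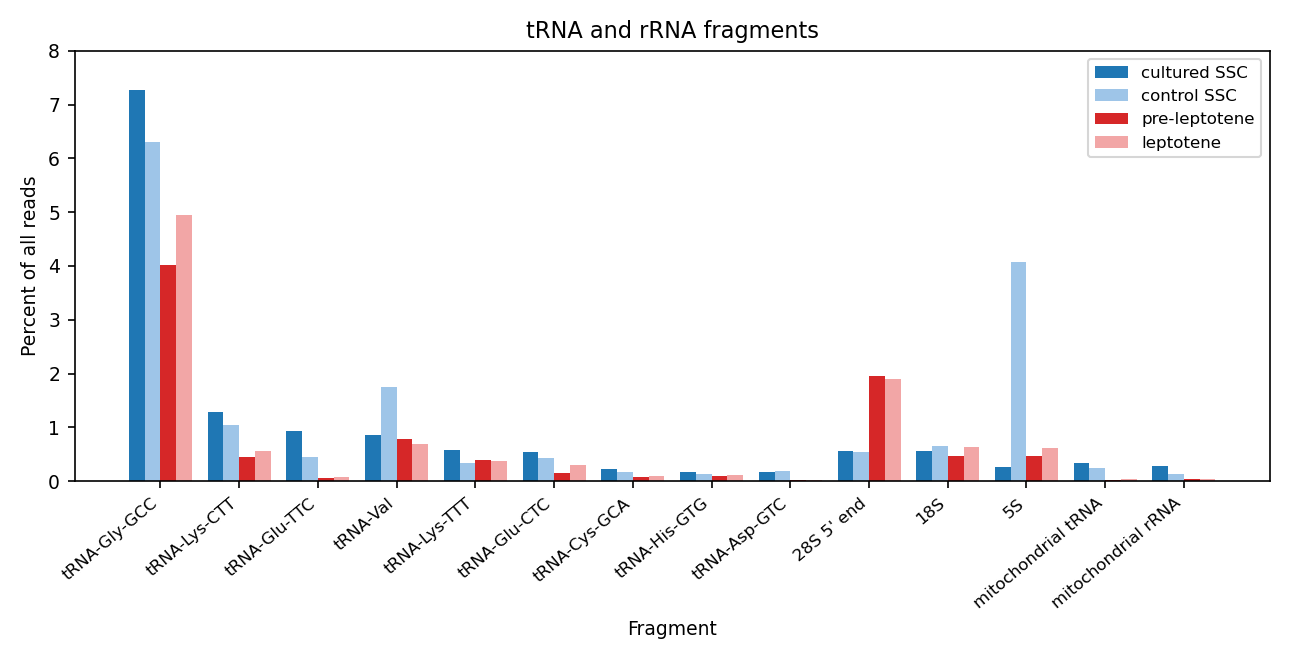
Percent of all reads (y axis) in each tRNA and rRNA fragment group (x axis) in the cultured SSC, control SSC, pre-leptotene and leptotene libraries; each bar is 1 library, with no error bar since there are no replicates. The SSC bars are the taller ones for tRNA-Gly-GCC, tRNA-Lys-CTT and tRNA-Glu-TTC, the spermatocyte bars for the 28S 5' end, and the control SSC library alone is high in 5S.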

How the data were processed

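The authors deposited, for each library, distinct tags of 17 to 41 nt with their read counts, not normalised; all tags were read. Trimming is not given in the sources used here. The submitters' processing notes name Bowtie and mm10/GRCm38, without roles. Per the labels' protocols, total RNA from TRIzol was made into Illumina small RNA libraries and sequenced on a HiSeq. The members and lists were chosen with earlier results of these data known.

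A read of 18 to 26 nt whose first 18 nt equal those of a mature arm (1731 arms of the RefSeq table, joined into 1660 entries where these bases are shared) was assigned to it. Other reads were matched whole and without mismatch to GENCODE M21 transcripts; no genome was used. Nuclear tRNA and 28S sequences were not analysed from a reference: the 18 most abundant groups of tags of 28 to 36 nt were named by hand from their 5' ends, which differs from the planned match, and reads were assigned where their first 18 nt lie in a group's longest common tag. Reads with the tRNA-Val start were split between that group and the tRNA-like one by the bases that follow. The commonest tags of the groups and the arms' hairpins are as deposited or as in RefSeq. Levels are percent of reads. A difference is called at 4-fold with at least 100 reads in 1 library; a count of 0 was set to 3 for folds. Shares have Clopper-Pearson intervals and folds exact conditional binomial ones, at 95%. Named are the 10 largest rises and falls, the 10 most abundant arms of each library, the 3 most abundant arms of each list, the 8 largest differences in arm share, in tails and in mean 3' end, and the main tRNAs, rRNAs and tags; seed groups, X linkage, 5' shifts and mRNA genes were chosen after values were seen. Some genes are not reported here. The most abundant tags without a gene match are given in the closing section as values only. Scripts were tested on simulated data and run in Python 3.11.15 with numpy 2.4.6, pandas 2.3.3 and scipy 1.17.1; TMM factors came from edgeR 4.0.16 and size factors from DESeq2 1.42.0, in R 4.3.3, as alternative scales only.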

Additional observations from a re-analysis of the deposited data

How the results depend on the processing

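No paired analysis was possible because each group is 1 library and no replicate numbers are shared, and no replicate was left out for the same reason. Values here are for the main pair with 1 choice changed, except the control SSC library against leptotene, which replaces both libraries.

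Arms 4-fold higher, 12 in the report, were 24 as a share of all reads, 52 with TMM and 59 with DESeq2 factors, 7 with a minimum of 1000 reads, 31 with a minimum of 10 reads, 37 with no minimum, 26 at 2-fold and 19 with the control SSC library against pre-leptotene. Arms 4-fold lower, 180 in the report, were 82 with TMM, 78 with DESeq2, 77 with a minimum of 1000 reads, 273 with 10 reads, 274 with no minimum, 76 with the control SSC library against pre-leptotene and 74 with it against leptotene.

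For the summed shares on the log2 scale, the order below is percent of all reads, whole mature sequence, control SSC library, leptotene library and TMM factors, the last added after seeing the data. The miR-506 family, 0.72 in the report, gave 1.59, 0.71, 0.67, 0.73 and 2.75. The pluripotent list, -5.47, gave -4.60, -5.93, -4.86, -4.48 and -3.45. The culture-linked list, -2.38, gave -1.51, -2.46, -2.46, -2.08 and -0.35. let-7, -1.37, gave -0.50, -1.49, -2.19, -1.45 and, reversed, 0.66. Dlk1-Dio3, -3.04, gave -2.17, -3.36, -2.73, -2.999 and -1.01. The feeder list, -0.52, gave 0.35 and 1.504, reversed, with all reads and TMM, -1.31 with the whole sequence and -1.001 with the control SSC library.

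Counting each tag once reversed the difference in all tails to -2.88 points and moved that in U tails from 1.62 to 3.70 points. Hairpins 10 points apart were 16 of 100 with at least 1000 reads. The piRNA-sized fold of 3.08 was 1.51 over distinct tags and 1.69 with the control SSC library. Shared tags were 26.5% and 67.8% at 10 reads and 11.6% of SSC tags after thinning. The 10-nt ratio was 6.12 and 3.52 by reads, and 3.10 on transcripts in pre-leptotene.

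All named tRNA groups, -0.995, gave -0.14 per reads of 25 to 40 nt, -0.99 for 5' starts, -0.84 with the control SSC and -0.74 with the leptotene library. tRNA-Gly-GCC, -0.86, gave 0.044, reversed, per reads of 25 to 40 nt, -0.65 and -0.56 with the other libraries. tRNA-Glu-TTC, -3.96, gave -3.17, -4.14, -2.90 and -3.63. All counted rRNA, 1.06, gave -0.87, reversed, with the control SSC library and 1.18 with leptotene. The 28S 5' end, 1.82, gave 1.84 and 1.77. Genes 4-fold higher, 21, were 308 within mRNA reads and 7 with U reads only, the 7 among genes with at least 100 U reads in 1 library. Genes 4-fold lower, 2507, were 617 within mRNA reads and 1538 with leptotene. All 3 settings were added after seeing the data. The cause of these changes was not tested. Depth limits the arms: the control SSC library holds 468367 miRNA reads, and a count of 0 allows up to 3 reads.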

Other observations

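Tags of 25 to 32 nt from both libraries were looked up in the other mouse libraries. Of the 197995 pre-leptotene tags with at least 2 reads, 22.4% occurred in leptotene and 23.6% in zygotene. In pachytene 12.6% occurred, among round spermatid tags 6.52%, and in the mature sperm library 4.12%. Of the 1271880 SSC tags the shares were, in that order, 7.17%, 11.1%, 6.73%, 3.42% and 0.884%. The zygotene library holds 1215172 distinct tags, the pachytene library 3713036 and the mature sperm library 580923, so these shares do not follow the number of tags alone.

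The most abundant piRNA-sized tag of the SSC library, of 27 nt, had 21647 reads there and 5222 in pre-leptotene, and matched no annotated transcript. That of pre-leptotene, of 28 nt, had 8681 reads there and 203 in SSCs, also with no match. The tags of 26, 27 and 25 nt that came next without a match in pre-leptotene had 8546, 6909 and 5887 reads there and 4958, 6126 and 1970 in SSCs. Among the next 4 of the SSC library are a tag of Rmrp, the RNA of RNase MRP (11892 and 1320 reads), and 2 tags found in the 3' UTRs of several genes.

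Counting only reads that begin at the 5' end, which gives slightly lower values than in the report, the tRNA-like group that resembles tRNA-Gly made up 0.274% of reads in SSCs, 1.957% in pre-leptotene, 0.772% in zygotene, 0.0206% in pachytene and 0.0129% in mature sperm, and the group that resembles tRNA-Val 0.00319% in zygotene, 0.000566% in pachytene and 0.00569% in mature sperm. The first tRNA-Gly-GCC group, by contrast, had 3.71% of reads in SSCs, 1.42% in pre-leptotene and 14.8% in mature sperm.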
